A study of Saccharomyces cerevisiae with 24 samples.

Results

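Transcripts of 33 nuclear genes that encode subunits of the mitochondrial respiratory chain and of ATP synthase were followed across a series of cell sizes in budding yeast. The genes were taken by a fixed list of systematic names, without use of any measured value: 9 of complex III (COR1, QCR2, RIP1, CYT1 and QCR6 to QCR10), 7 of complex IV (COX4, COX6, COX7, COX8, COX9, COX12 and COX13), 12 of ATP synthase, the 4 succinate dehydrogenase genes SDH1 to SDH4 of complex II, and NDI1. They are 33 of the 7032 features in the count table, and all 33 passed the filter on low counts that left 6402 genes for testing. RNA was prepared from Saccharomyces cerevisiae of the diploid wild-type strain BY4743, known to lack URA3 and LEU2, in the glucose-rich medium YPD at 30 °C. Small G1 cells were collected by elutriation, a separation of cells by size in a centrifuge, and cultured further until they had the wanted size. They were then stopped with cycloheximide and azide and frozen. Elutriated cells of like size were then pooled, and each pool gave 1 library of RNA depleted of rRNA. The 24 libraries form 8 groups of 3, named by their nearest size of 40, 45, 50, 55, 60, 65, 70 or 75 fL, and a library of 67.5 fL counts as replicate 1 of the 70 fL group. No group differs in genotype or medium, so the groups differ in size and with it in time in culture and in the cultures pooled. Cells that started in G1 may also differ in cell cycle stage, and these differences cannot be told apart.

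In mitochondria, electrons from NADH and succinate enter the chain at dehydrogenases, pass through ubiquinone to complex III (the cytochrome bc1 complex), cytochrome c and complex IV (cytochrome c oxidase), and so reach oxygen. The proton gradient built on the way drives ATP synthase, a rotary enzyme with a catalytic F1 head, a peripheral stalk and a membrane part. Budding yeast has no proton-pumping complex I and uses single-protein NADH dehydrogenases such as Ndi1 in its place. Most subunits are encoded in the nucleus and a few in mitochondrial DNA, and in yeast many of the nuclear genes are repressed in high glucose and activated by the CCAAT-binding Hap2/3/4/5 complex.

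The element that the Hap complex is known to bind is shown first, because it is a feature of these promoters that the choice of genes did not use. The motif ACCAATNA was searched on both strands of the 500 bases before each start codon in the RefSeq R64 genome. It was present before 15 of the 33 genes (45.5%), against 516 of 6000 genes with a window of that length (8.6%). Its core CCAAT, which lies within ACCAATNA, was present before 31 of 33 genes (93.9%) and before 3746 of all 6000 (62.4%). By complex the longer motif stood before 3 of 9 complex III genes, 4 of 7 complex IV genes, 6 of 12 ATP synthase genes, SDH1 and NDI1. A match is a run of letters and not a binding site measured here, and some windows run into a neighbouring gene. Windows of 30 bases around the motif (capitals), 5′ to 3′ on the strand of the gene, are given for at least 1 gene of each complex; these include genes that rose across the sizes and COX13 and ATP17, which did not pass between 40 and 75 fL.
COR1 (chrII:135849-135878, minus strand): acgctttctgcACCAATGAaatgccaataa
COX6 (chrVIII:209477-209506, plus strand): gaaaagggaccTAATTGGTccggtcaaagc
COX13 (chrVII:144584-144613, plus strand): ttttttttcccACCAATGAgaggcggtact
ATP3 (chrII:315368-315397, plus strand): cgtgatggagaACCAATGAgcggcgagtaa
ATP17 (chrIV:1228370-1228399, plus strand): ttacggagagaACCAATCAtatcgaaggat
SDH1 (chrXI:171429-171458, minus strand): ggcgggggtggACCAATCAcagcgcagaac
NDI1 (chrXIII:30017-30046, minus strand): tattcattcggACCAATCAtatgaaggcat
In these windows the motif lay 344 bases before the start codon in COR1, 210 in COX6, 206 in COX13, 189 in ATP3, 223 in ATP17, 311 in SDH1 and 221 in NDI1. COX6 carries it on the opposite strand, so its capitals read as the reverse complement.

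Total counts ran from 16103753 to 24408547 per library, and the genes described here had between 378 and 30199 counts each in a library. Counting error is thus often small beside the spread between replicates. It is not where libraries of a size lay very close, as for QCR9 at 40 fL (57.3 ± 0.72 CPM, SD, n = 3). Over all tested genes, replicates differed beyond counting noise in each pair (chi-square per degree of freedom between 9.13 and 262). URA3 and LEU2 had 0 counts in 24 of 24 libraries, which allows up to 0.186 CPM (3 counts at the lowest depth; counting error only). The TMM scaling factors lay between 0.929 and 1.041, except in the 40 fL libraries (1.157 to 1.172). Haploid-specific genes, which should be low in a diploid, were not at 0 in any library: 10 of 12 fell between 40 and 75 fL, and their summed level was 165 to 185 CPM in the 40 fL libraries and 68.1 to 81.7 CPM at 75 fL. Of 8 meiosis genes 4 fell, with a summed level of 154 to 168 CPM at 40 fL and 78.3 to 85.2 CPM at 75 fL. In that comparison 30.2% of all tested genes fell. What part the haploid-specific and meiosis transcripts have in the values below was not tested. An earlier report on the same data found 5 libraries apart from their mates (replicate 1 of 40 and of 70 fL, replicate 2 of 50 and of 55 fL, and replicate 3 of 45 fL), and counts are given with and without them.

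Most of the respiratory genes had more RNA at 75 and at 50 than at 40 fL. Between 40 and 75 fL 24 of 33 genes rose and none fell, where 31.0% of all tested genes rose and 30.2% fell (edgeR quasi-likelihood test, Benjamini-Hochberg adjusted p under 0.05 over 6402 genes). Their median log2 change was 0.76, beside -0.01 for all tested genes. The largest rise was that of COR1, with a log2 change of 1.27 ± 0.26 (SE), or 2.42-fold. By complex 3 of 4 complex II genes, 6 of 9 complex III genes, 4 of 7 complex IV genes, 10 of 12 ATP synthase genes and NDI1 rose, with median log2 changes of 0.95, 0.76, 0.47, 0.74 and 1.03. The 3 libraries of 75 fL were all above the 3 of 40 fL for 25 genes, a pattern found for 36.0% of all tested genes. In bulk RNA, a smaller share of cells with these transcripts and less of them per cell cannot be told apart, and CPM (counts scaled to library size with TMM factors) give shares of the library, not copies per cell.

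Between 40 and 50 fL 24 of 33 genes also rose and none fell, where 32.8% of tested genes rose and 24.2% fell, with a median log2 change of 0.70 beside 0.05 for all genes. For 26 genes the libraries of 50 fL were all above those of 40 fL, as for 35.8% of tested genes. Both comparisons use the same 40 fL libraries, so their likeness is not independent. By complex 3 of 4, 6 of 9, 4 of 7, 10 of 12 genes and NDI1 rose, in the order above. COX13 and ATP17 passed at 50 fL but not at 75 fL, and COX8 and ATP14 passed at 75 fL but not at 50 fL. Genes that passed in neither comparison were QCR8, QCR9, QCR10, COX7, COX9, ATP20 and SDH4.

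**Figure D1:**
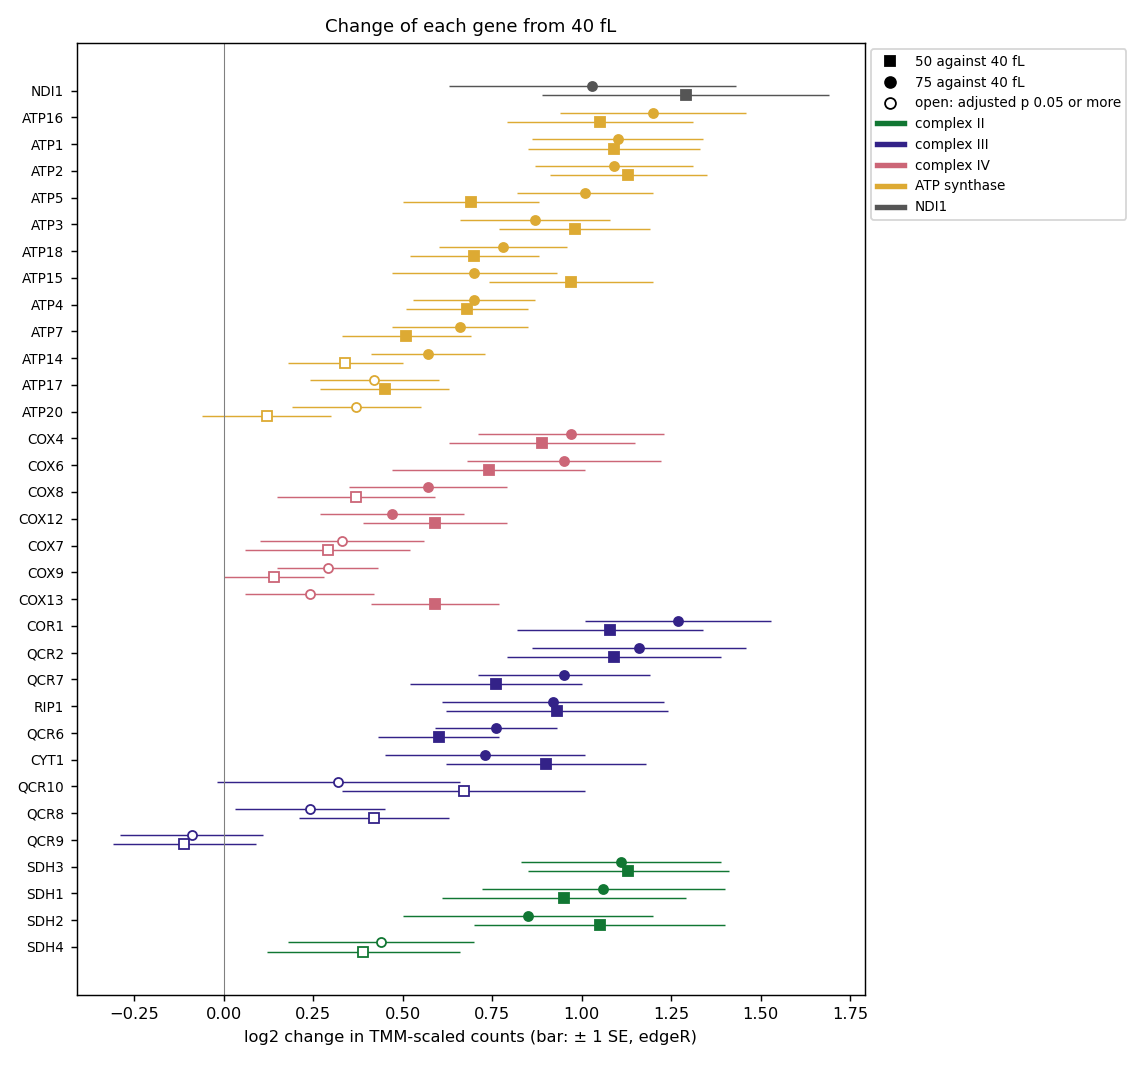
Log2 change of TMM-scaled counts from 40 to 50 fL (squares) and from 40 to 75 fL (circles) for each of the 33 genes, coloured by complex, with bars of ± 1 SE from edgeR. Filled symbols passed an adjusted p of 0.05, and open symbols did not; QCR9 is the single gene below 0 in both comparisons, at -0.11 and -0.09.

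These counts depend on single libraries and on the scaling. Without 75 fL replicate 2 the number of genes that rose between 40 and 75 fL was 15, where 27.8% of all tested genes rose, with complexes II, III and IV at 1, 4 and 2 genes, ATP synthase at 8 and NDI1 no longer called. The calls that ended were those of RIP1, CYT1, COX8, COX12, ATP14, ATP15, SDH1, SDH2 and NDI1, with adjusted p between 0.0553 and 0.251. Without 40 fL replicate 2 the calls of RIP1, CYT1, COX8, COX12, SDH1, SDH2 and NDI1 ended (0.0514 to 0.111). Without 40 fL replicate 3 those of RIP1, CYT1, COX8, COX12, ATP15, SDH2 and NDI1 ended (0.0501 to 0.123). The calls of CYT1 and COX12 also ended without 40 fL replicate 1 (0.0544 and 0.0641), and COX12 and SDH2 without 75 fL replicate 3 (0.0559 and 0.0532). The other 15 calls held when any of these 6 libraries was left out. Between 40 and 50 fL 16 of 24 calls held in the same way; those of RIP1, COX6, ATP7, ATP17 and SDH1 ended without replicate 2 or 3 of 40 fL or replicate 1 or 3 of 50 fL (0.0523 to 0.134), that of COX12 without 40 fL replicate 2 or 50 fL replicate 1 or 3 (0.0508 to 0.101), that of SDH2 without replicate 2 or 3 of 40 fL or replicate 1 of 50 fL (0.0524 to 0.055), and that of QCR7 without 50 fL replicate 3 (0.0567). Without the 5 libraries that stood apart, 29 genes rose by 75 fL and 30 by 50 fL, where 34.8% and 37.8% of all tested genes rose.

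Plain library totals in place of TMM gave 15 and 14 genes that rose, where 19.1% and 19.0% of all tested genes rose, as the median of all genes then stood at -0.28 for 75 fL and -0.19 for 50 fL. With deposited TPM (a level per coding length, here as log2 of TPM plus 1 in limma), where that median was -0.42 and -0.32, 9 genes rose in each comparison, where 14.6% and 13.8% of all genes rose, and QCR9 fell in both (log2 change -0.57, adjusted p = 0.0228, and -0.50, adjusted p = 0.0471). Falls were common on that scale, where 3518 of all 6402 tested genes fell to 75 fL and 3090 to 50 fL. The 9 that rose in the 75 fL comparison were COR1, QCR2, QCR7, SDH3, ATP1, ATP2, ATP3, ATP5 and ATP16. Set against the median of all genes, the median of the 33 genes was 0.72 to 0.77 higher at 75 fL and 0.62 to 0.65 higher at 50 fL under each of these scalings, RLE factors, DESeq2 and limma-voom, and 32 of 33 genes lay above the median of all genes each time. Without the 5 libraries those differences were 0.76 and 0.94. A change of scaling shifts all genes of a library alike, so the likeness between scalings was nearly fixed in advance.

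Electrons enter the chain from matrix NADH through NDI1 (YML120C, chrXIII:28266-29807), which encodes the internal NADH:ubiquinone oxidoreductase. Its CPM in replicates 1, 2 and 3 were 68, 56 and 53.2 at 40 fL, 141, 79.3 and 33 at 45 fL, 160, 125 and 149 at 50 fL and 53.6, 124 and 74.4 at 55 fL. At the larger sizes they were 120, 133 and 129 at 60 fL, 112, 122 and 95.2 at 65 fL, 248, 144 and 108 at 70 fL and 86.5, 169 and 107 at 75 fL. The 40 fL libraries lay below all libraries of 50, 60, 65, 70 and 75 fL, whereas those of 45 and 55 fL overlapped them. NDI1 had the widest range of size means of the 33 genes, 1.49 on the log2 scale between 40 and 70 fL (adjusted p = 0.0386 over the 8 sizes). It rose by 1.29 ± 0.40 to 50 fL (adjusted p = 0.0107) and by 1.03 ± 0.40 to 75 fL (adjusted p = 0.0309). The highest of the 24 libraries was 70 fL replicate 1, the pool of 67.5 fL.

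Complex II, succinate dehydrogenase, ties the TCA cycle to the chain, and 3 of its 4 genes rose. SDH1 (YKL148C, chrXI:169207-171129) encodes the flavoprotein subunit with the active site, and its CPM were 115, 70.3 and 76.8 at 40 fL, 149, 95.3 and 50.6 at 45 fL, 193, 132 and 182 at 50 fL and 73.8, 179 and 123 at 55 fL. Above that size they were 167, 182 and 185 at 60 fL, 128, 118 and 140 at 65 fL, 242, 211 and 145 at 70 fL and 138, 244 and 166 at 75 fL. All libraries of 50 and 75 fL exceeded those of 40 fL, and the lowest library of all was 45 fL replicate 3. SDH1 changed over the 8 sizes (adjusted p = 0.0257) and was higher than at 40 fL by 1.06 ± 0.34 at 75 fL (adjusted p = 0.0116).

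SDH3 (YKL141W, chrXI:179667-180263), which encodes the cytochrome b anchor and had the highest TPM of complex II, gave CPM of 62.7, 47.9 and 52.2 at 40 fL, 96.6, 64.2 and 35.2 at 45 fL, 127, 98.3 and 130 at 50 fL and 56.6, 114 and 78 at 55 fL. The libraries from 60 fL on gave 99.9, 115 and 112 at 60 fL, 95.2, 95.3 and 104 at 65 fL, 133, 127 and 101 at 70 fL and 97, 148 and 106 at 75 fL. Its 40 fL libraries overlapped those of 45 and 55 fL and none of the other sizes. The log2 change was 1.13 ± 0.28 to 50 fL (adjusted p = 0.00272) and 1.11 ± 0.28 to 75 fL (adjusted p = 0.00229).

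SDH4 (YDR178W, chrIV:817950-818495), the other membrane anchor, had the narrowest range within the complex (0.62), with CPM of 53.1, 42.5 and 36 at 40 fL, 55.5, 36.2 and 24.6 at 45 fL, 61.4, 50.9 and 59.8 at 50 fL and 30.5, 57 and 43.2 at 55 fL. At the larger sizes the values were 46.3, 53.7 and 58.5 at 60 fL, 41.9, 43.8 and 46.7 at 65 fL, 69.7, 63.7 and 45 at 70 fL and 45.5, 79.8 and 53.4 at 75 fL. Its 40 fL libraries overlapped those of each larger size, and the gene did not pass over the 8 sizes (adjusted p = 0.198) or between 40 and 75 fL (0.44 ± 0.26, adjusted p = 0.158). SDH2, the iron-sulfur subunit, rose by 1.05 ± 0.35 to 50 fL and 0.85 ± 0.35 to 75 fL, with size means between 54.6 ± 8.52 CPM at 40 fL and 113.1 ± 17.4 at 50 fL (SD, n = 3), although the test over all sizes missed the threshold (adjusted p = 0.0723).

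In complex III the core and electron-carrying subunits rose, and the small subunits QCR8, QCR9 and QCR10 did not pass. COR1 (YBL045C, chrII:134143-135516) encodes a core protein on the matrix side, with CPM of 177, 172 and 169 at 40 fL, 310, 213 and 127 at 45 fL, 422, 278 and 393 at 50 fL and 220, 403 and 299 at 55 fL. From 60 fL on they were 362, 405 and 413 at 60 fL, 338, 337 and 389 at 65 fL, 502, 443 and 397 at 70 fL and 343, 542 and 366 at 75 fL. The 40 fL libraries lay within 169 and 177, below every library of 50 fL and above, and those of 45 fL spread from 127 to 310. COR1 had the widest range of the complex, 1.37 (adjusted p = 0.00146 over the sizes), with a change of 1.08 ± 0.26 to 50 fL (adjusted p = 0.00238) and 1.27 ± 0.26 to 75 fL (adjusted p = 0.000464).

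QCR7 (YDR529C, chrIV:1496165-1496548), a small subunit on the matrix side that is needed for assembly, had the highest TPM of complex III. Its CPM were 160, 131 and 145 at 40 fL, 211, 139 and 94.5 at 45 fL, 264, 190 and 282 at 50 fL and 139, 225 and 173 at 55 fL. The rest were 242, 220 and 241 at 60 fL, 189, 187 and 222 at 65 fL, 323, 242 and 222 at 70 fL and 240, 346 and 259 at 75 fL. Every library of 50, 60, 65, 70 and 75 fL was above those of 40 fL. It rose by 0.95 ± 0.24 to 75 fL (adjusted p = 0.00234).

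QCR9 (YGR183C, chrVII:859063-859476) encodes a small transmembrane subunit, and its gene has 2 coding exons. Its CPM were 56.5, 57.9 and 57.4 at 40 fL, 53.7, 41.3 and 34.8 at 45 fL, 51.7, 50.8 and 56.6 at 50 fL and 31.8, 44.1 and 40 at 55 fL. The other libraries gave 42.6, 45.5 and 45.5 at 60 fL, 50.2, 50.8 and 46.3 at 65 fL, 78.5, 52.4 and 44.3 at 70 fL and 45.7, 73.8 and 42.5 at 75 fL. The 40 fL libraries, between 56.5 and 57.9, were above all those of 45, 55, 60 and 65 fL, while 70 fL replicate 1 and 75 fL replicate 2 stood higher still. It was the single gene whose change from 40 to 75 fL was below 0 (-0.09 ± 0.20, adjusted p = 0.733), and that sign turned to 0.02 without 75 fL replicate 1 and to 0.06 without replicate 3. Its range of 0.60 was the narrowest of the complex and did not pass (adjusted p = 0.105).

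Among the other complex III genes QCR2, the other core protein, rose by 1.09 ± 0.30 to 50 fL and 1.16 ± 0.30 to 75 fL, with 154.4 ± 25.0 CPM at 40 fL and 343.9 ± 94.2 at 75 fL (SD, n = 3). RIP1, the Rieske iron-sulfur protein, went from 54.3 ± 4.50 to 102.4 ± 29.6 CPM and CYT1, cytochrome c1, from 91.1 ± 3.02 to 151.5 ± 39.0, with log2 changes of 0.92 ± 0.31 and 0.73 ± 0.28. QCR6, an acidic subunit beside cytochrome c1, rose by 0.76 ± 0.17 to 75 fL (adjusted p = 0.00114). For QCR8 and QCR10, 2 of the small transmembrane subunits, the changes to 75 fL were 0.24 ± 0.21 and 0.32 ± 0.34, and neither passed over the sizes (adjusted p = 0.0718 and 0.259). Both had their lowest size mean at 55 fL, as did QCR9.

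Of the 7 complex IV genes 2, COX4 and COX6, passed over the 8 sizes, beside 79.6% of all tested genes, while 21 of all 33 did (63.6%). COX4 (YGL187C, chrVII:149704-150171), a zinc-binding subunit needed for function, had the widest range of the complex at 1.03. Its CPM were 48.7, 44.4 and 42 at 40 fL, 70.5, 48.6 and 29.1 at 45 fL, 93.5, 62.3 and 94.6 at 50 fL and 48, 87.6 and 60 at 55 fL. Larger cells gave 87.9, 78.9 and 88.7 at 60 fL, 71.4, 72.7 and 80.4 at 65 fL, 101, 94.4 and 79.3 at 70 fL and 72.8, 116 and 75.4 at 75 fL. All libraries from 60 fL on were above all of 40 fL, and those of 45 and 55 fL overlapped them. It rose by 0.89 ± 0.26 to 50 fL (adjusted p = 0.00801) and 0.97 ± 0.26 to 75 fL (adjusted p = 0.00394).

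COX9 (YDL067C, chrIV:334217-334396), a small transmembrane subunit, had both the narrowest range, 0.43, and the highest TPM of complex IV. Its CPM were 117, 104 and 89 at 40 fL, 109, 94.2 and 79.2 at 45 fL, 118, 103 and 120 at 50 fL and 91.7, 117 and 93.4 at 55 fL. At the larger sizes they were 109, 122 and 114 at 60 fL, 102, 102 and 111 at 65 fL, 118, 122 and 120 at 70 fL and 108, 158 and 114 at 75 fL. The 40 fL libraries, from 89 to 117, overlapped those of each other size except 70 fL, and the highest library was 75 fL replicate 2. The change to 75 fL was 0.29 ± 0.14 (adjusted p = 0.0796).

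COX6, a subunit on the matrix side, rose by 0.74 ± 0.27 to 50 fL and 0.95 ± 0.27 to 75 fL, from 33.3 ± 4.25 to 64.1 ± 16.4 CPM (SD, n = 3). COX12, a subunit on the side of cytochrome c, rose by 0.59 ± 0.20 and 0.47 ± 0.20, though its 75 fL call (adjusted p = 0.0458) also ended, with adjusted p from 0.0501 to 0.0533, when a library of another size was left out: 45 fL replicate 2, 50 fL replicate 1, 55 fL replicate 3, 70 fL replicate 3 or any of 60 and 65 fL. COX8, a small transmembrane subunit, had changes of 0.37 ± 0.22 at 50 fL and 0.57 ± 0.22 at 75 fL, and passed at the latter (adjusted p = 0.0347). COX13, a peripheral subunit, had its highest mean at 50 fL, 134.8 ± 8.00 CPM, against 89.7 ± 8.59 at 40 fL and 105.9 ± 21.4 at 75 fL. COX7 was at 56.3 ± 8.43 CPM at 40 fL and 70.9 ± 16.7 at 75 fL and did not pass in any comparison (adjusted p = 0.275 over the sizes).

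Of the 12 ATP synthase genes 10 passed over the 8 sizes, beside 79.6% of all tested genes, and 10 rose between 40 and 75 fL, beside 31.0%. ATP16 (YDL004W, chrIV:443029-443511) encodes the delta subunit of the central stalk and had the widest range, 1.22 (adjusted p = 0.00325). Its CPM were 97.9, 66.8 and 66.7 at 40 fL, 134, 106 and 61.5 at 45 fL, 185, 109 and 187 at 50 fL and 88.2, 165 and 118 at 55 fL. From 60 fL on they were 163, 171 and 173 at 60 fL, 146, 142 and 161 at 65 fL, 202, 169 and 169 at 70 fL and 156, 209 and 167 at 75 fL. All libraries of 50 fL and of 60 fL and above were higher than the 3 of 40 fL. The change was 1.05 ± 0.26 to 50 fL (adjusted p = 0.00277) and 1.20 ± 0.26 to 75 fL (adjusted p = 0.000745).

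ATP2 (YJR121W, chrX:647607-649142) encodes the catalytic beta subunit and had the highest TPM of the 33 genes. Its CPM were 745, 597 and 628 at 40 fL, 1252, 852 and 590 at 45 fL, 1680, 1039 and 1606 at 50 fL and 820, 1326 and 1050 at 55 fL. The remaining values were 1500, 1350 and 1547 at 60 fL, 1107, 1055 and 1258 at 65 fL, 1435, 1349 and 1375 at 70 fL and 1289, 1617 and 1273 at 75 fL. It was above the 40 fL libraries in all libraries of 50 fL and larger sizes, and 45 fL replicate 3 was lower than all of them. ATP2 rose by 1.13 ± 0.22 to 50 fL (adjusted p = 0.000547), 2.20-fold, and by 1.09 ± 0.22 to 75 fL (adjusted p = 0.000488).

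ATP17 (YDR377W, chrIV:1228611-1228916), the f subunit in the membrane, had the narrowest range of the complex, 0.47 (adjusted p = 0.0665). Its CPM were 130, 105 and 107 at 40 fL, 144, 107 and 87.7 at 45 fL, 172, 124 and 173 at 50 fL and 104, 136 and 128 at 55 fL. The others were 149, 134 and 145 at 60 fL, 127, 115 and 141 at 65 fL, 179, 144 and 147 at 70 fL and 131, 187 and 138 at 75 fL. Its 75 fL libraries did not overlap those of 40 fL, the nearest being 131 and 130, and the change of 0.42 ± 0.18 just missed the threshold (adjusted p = 0.0505).

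In the F1 head ATP1 (alpha) and ATP3 (gamma) rose by 1.10 ± 0.24 and 0.87 ± 0.21 to 75 fL, ATP1 from 323.6 ± 42.4 to 691.7 ± 113 CPM (SD, n = 3). ATP15, the epsilon subunit, had its highest mean at 50 fL, 125.9 ± 9.28 CPM against 64.1 ± 5.42 at 40 fL and 104.1 ± 27.3 at 75 fL. In the peripheral stalk ATP5, which encodes the oligomycin sensitivity protein, rose by 1.01 ± 0.19 to 75 fL with the smallest adjusted p of the 33 genes (0.000176), ATP4 by 0.70 ± 0.17, ATP7 by 0.66 ± 0.19 and ATP14 by 0.57 ± 0.16. Of the membrane subunits ATP18 rose by 0.78 ± 0.18, whereas ATP20, the g subunit needed for dimers of the enzyme, differed by 0.37 ± 0.18 (adjusted p = 0.0862) with its lowest mean at 45 fL and its highest at 75 fL.

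The size means of these genes did not climb smoothly between 40 and 75 fL. The lowest of the 8 size means was at 40 fL for 23 genes, at 45 fL for 6 and at 55 fL for 4, and the highest at 70 fL for 15, at 50 and 75 fL for 8 each and at 60 fL for 2. From 50 to 60 fL none of the 33 genes passed, where 3.98% of tested genes rose and 6.11% fell, and from 60 to 75 fL none passed, where 2.00% rose and 2.01% fell; in both, none had an unadjusted p under 0.05, and DESeq2 and limma-voom also called none. The median log2 changes were -0.05 and 0.10. The steps between neighbouring sizes were compared after the size means had been seen. All 33 genes were read in the same 3 libraries per size, so a shared direction is not 33 separate observations. Of 6402 tested genes, 3349 were higher from 45 to 50 fL and 3121 lower from 50 to 55 fL. At the next steps 3033 were higher at 60 fL, 2733 lower at 65 fL and 3476 higher at 70 fL. Between 40 and 45 fL none of the 33 genes passed, where 11.6% of tested genes rose and 2.84% fell, and none of the 33 had an unadjusted p under 0.05. From 45 to 50 fL all 33 were higher and 16 rose, where 15.3% of tested genes rose and 16.8% fell, with a median of 0.64. From 50 to 55 fL all 33 were lower, with a median of -0.41, and 2 fell, where 7.58% of tested genes rose and 14.1% fell: QCR8 (-0.71 ± 0.21, adjusted p = 0.0229) and ATP15 (-0.66 ± 0.23, adjusted p = 0.0471). All 33 were higher again at 60 fL (median 0.36), 31 lower at 65 fL (-0.17) and all 33 higher at 70 fL (0.28), and none passed at those steps or between 70 and 75 fL, with no unadjusted p under 0.05; 1.44%, 2.16%, 0% and 0.141% of tested genes rose at these 4 steps, and 3.36%, 2.94%, 0% and 0.203% fell.

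Both steps around 50 fL rest on libraries that spread widely. From 45 to 50 fL no gene passed without 45 fL replicate 3, 50 fL replicate 1 or 50 fL replicate 3, or when those 2 sizes were fitted alone, fits in which at most 0.0155% of all tested genes rose. Without 45 fL replicate 2 4 genes rose, where 14.6% of all genes did, and without 45 fL replicate 1 32 rose, where 19.4% did. From 50 to 55 fL none fell without replicate 1 or 3 of 50 fL or replicate 1 or 3 of 55 fL, or when those sizes were fitted alone, where between 3.17% and 8.31% of all genes fell. Without 50 fL replicate 2 10 genes fell, where 19.3% of all genes did, and without 55 fL replicate 2 12 fell, where 17.4% did. Without the 5 libraries that stood apart, 25 rose at the earlier step and 31 fell at the later one, where 31.1% of all genes rose and 29.1% fell.

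The libraries of a size kept nearly the same order in all complexes. The mean log2 CPM of the 33 genes, set against the 40 fL mean, was 0.16, -0.07 and -0.09 in the 40 fL libraries, 0.56, 0.06 and -0.51 at 45 fL, 0.84, 0.41 and 0.85 at 50 fL and -0.13, 0.64 and 0.23 at 55 fL. It was 0.60, 0.64 and 0.69 at 60 fL, 0.39, 0.44 and 0.52 at 65 fL, 0.98, 0.72 and 0.54 at 70 fL and 0.48, 1.08 and 0.57 at 75 fL. The 60 and 65 fL libraries were the tightest, and the 45 fL libraries spread most. The library that was highest at a size was the same one in complexes II, III, IV and ATP synthase at 7 of 8 sizes, and the lowest was the same at 6 of 8. The median of all tested genes stayed between -0.05 and 0.10 in these libraries. The complexes share libraries, depth and scaling, and their values are not independent of each other.

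**Figure D2:**
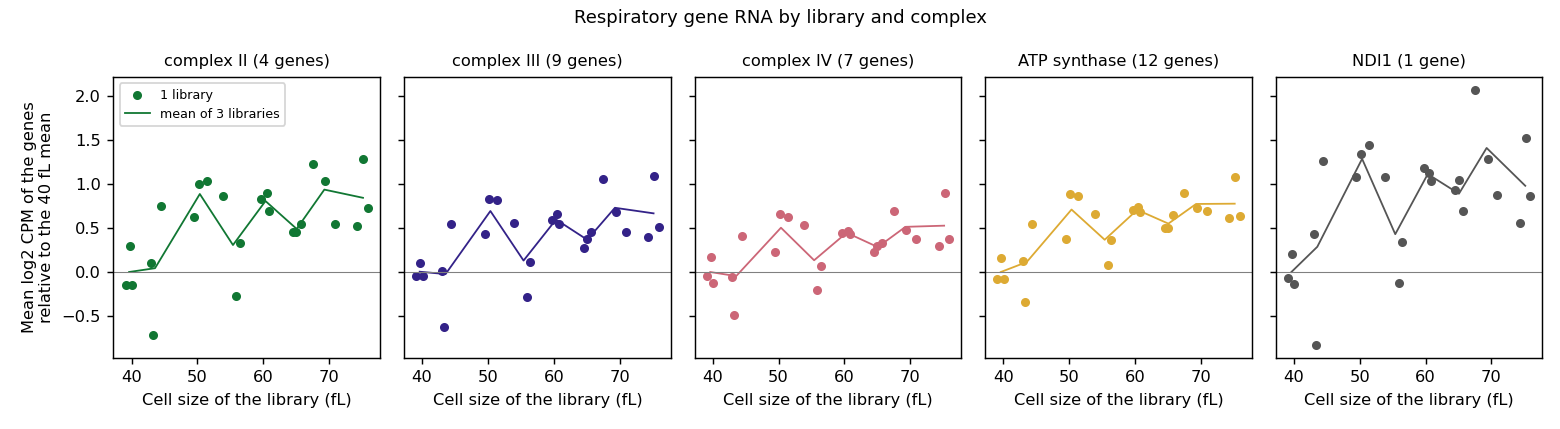
Mean log2 CPM of the genes of each complex relative to the 40 fL mean (vertical axis) against the labelled cell size of the library in fL, with 1 point per library and a line through the means of 3. All 5 panels are low at 40 fL, spread widely at 45 and 55 fL and are high at 50, 60, 70 and 75 fL; for all 33 genes together the 45 fL libraries ran from -0.51 to 0.56.

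Levels per length, read from the deposited TPM as means over the 24 libraries, spanned a wide range among the genes. ATP2 was highest at 742.5 TPM, followed by COX9 (599.9), QCR7 (535.7), ATP18 (507.9), ATP15 (485.9) and ATP17 (433.7). The lowest were NDI1 (70.4), SDH1 (73.4), SDH4 (89.6), SDH2 (104.6) and COX6 (109.4). Single libraries of ATP2 ran from 428 to 1010 TPM and those of COX9 from 490 to 785, so these neighbours in the order overlap, whereas the lowest value of ATP2 exceeded the highest of NDI1, 167. Subunits of a single complex differed too: in complex III QCR7 stood at 535.7 and RIP1 at 124.9 TPM. Summed over its 4 genes complex II reached 350.2 ± 55.5 TPM at 40 fL and 474.5 ± 122 at 75 fL (SD, n = 3). Complex III had 2222.4 ± 78.7 and 2642.0 ± 635, complex IV 2198.0 ± 221 and 2194.8 ± 466, and ATP synthase 3766.4 ± 293 and 4851.8 ± 790. On this scale the median of all genes was itself lower at 75 than at 40 fL, by a log2 change of -0.42. TPM divide by the annotated coding length of each gene, which leaves out UTRs.

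**Figure D3:**
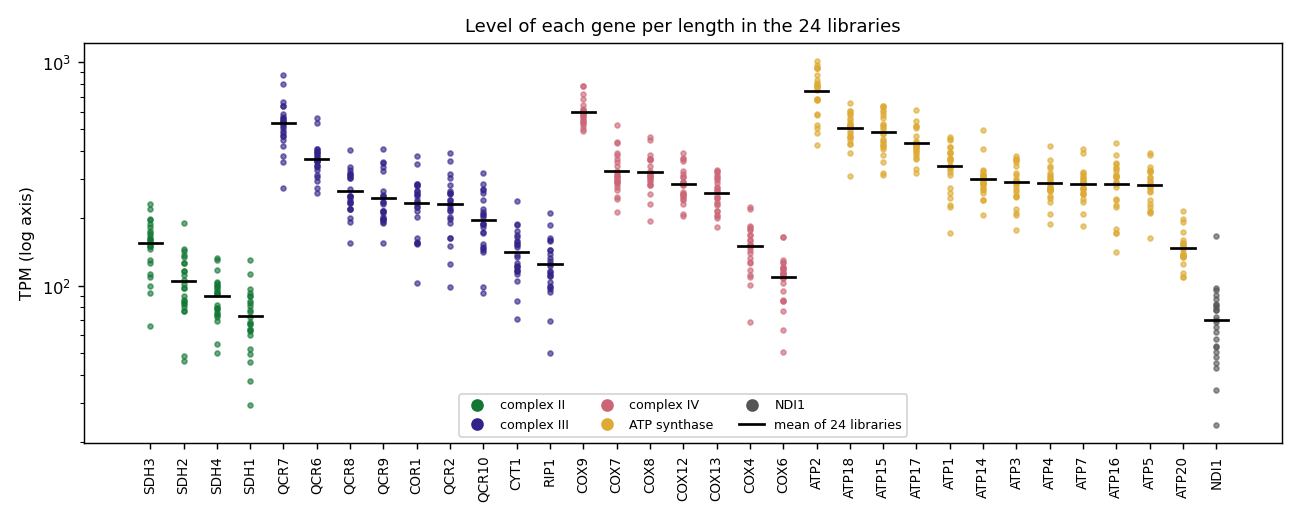
Deposited TPM (log axis) of each of the 33 genes in the 24 libraries, with 1 point per library and a bar at the mean, ordered by mean within each complex. ATP2, COX9 and QCR7 lead with means of 742.5, 599.9 and 535.7 TPM, and NDI1 and SDH1 lie lowest, at 70.4 and 73.4 TPM.

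Changes were smaller among the genes for short subunits, a pattern noted after the changes were seen. Of the 16 genes with under 450 coding bases 8 rose between 40 and 75 fL, with a median log2 change of 0.44, and of the 17 longer ones 16 rose, with a median of 1.01. The exception among the longer genes was SDH4, and the short genes that rose were QCR6, QCR7, COX6, COX8, COX12, ATP14, ATP15 and ATP18. Among all tested genes the shorter class had 25.3% that rose and a median of -0.03 (675 genes), and the longer 33.7% and 0.01 (5168 genes). Spearman's correlation of coding length with the change was 0.73 over the 33 genes and 0.02 over 5843 genes. As these are correlations across genes measured in the same libraries, no p is given. Longer genes here also had higher CPM (rho 0.61 between length and mean CPM), and mean CPM itself had a rho of 0.60 with the change, so length and read number cannot be told apart over these genes. From 40 to 50 fL the medians were 0.52 and 0.98, and 8 of 16 and 16 of 17 rose. Of all tested genes in the shorter and longer class 27.7% and 35.7% rose to 50 fL, with medians of 0.04 and 0.08. None of the 33 genes shares a stretch of 30 bases with another place in the genome or overlaps another annotated gene.

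**Figure D4:**
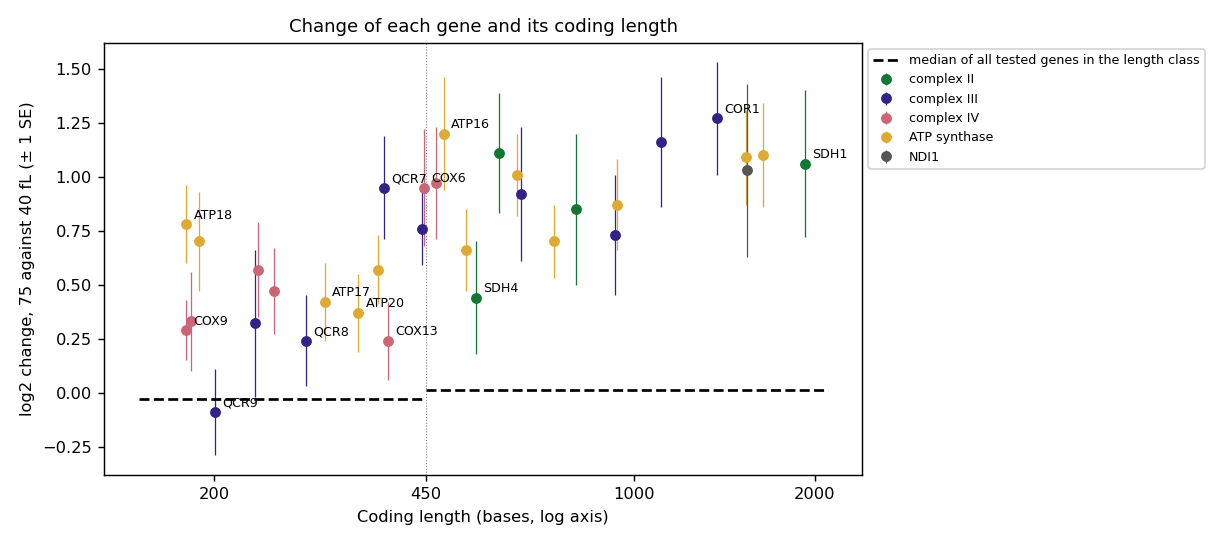
Log2 change from 40 to 75 fL (± 1 SE, edgeR) of each gene against its coding length in bases (log axis), coloured by complex. Dashed lines mark the median of all tested genes under 450 bases (-0.03) and from 450 bases on (0.01); the longer respiratory genes lie around 1, and the shorter ones from -0.09 to 0.95.

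The ACCAATNA motif was found before genes with large and with small changes. Of the 15 genes that carry it 13 rose between 40 and 75 fL, with a median log2 change of 0.70, and of the 18 that do not 11 rose, with a median of 0.77. Between 40 and 50 fL 13 and 11 rose, with medians of 0.74 and 0.70. Among all tested genes, with or without the motif, 31.0% rose to 75 fL and 32.8% to 50 fL. COR1, with the largest rise, and COX13, with a change of 0.24, both carry it.

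Of 7 subunits of the same complexes that are encoded in mitochondrial DNA, 4 rose between 40 and 75 fL and none fell, with a median log2 change of 0.43. Among all tested genes 31.0% rose and 30.2% fell in that comparison, and 32.8% and 24.2% between 40 and 50 fL. The changes of the 4 genes to 75 fL follow. COX1 rose by 0.33 ± 0.12, COB by 0.57 ± 0.17, ATP8 by 1.56 ± 0.59 and OLI1 by 0.60 ± 0.17. All these calls ended without 75 fL replicate 2 (adjusted p = 0.0908, 0.0687, 0.337 and 0.0507). That of COX1 also ended without replicate 1 or 3 of 40 fL or replicate 1 of 75 fL (0.0966, 0.0524 and 0.0806), that of COB without 40 fL replicate 1 (0.0517), and that of ATP8, which had a mean of 4.23 ± 2.05 CPM at 40 fL, without 40 fL replicate 2 or 3 (0.0649 and 0.114). By deposited TPM the COX1 value was -0.11. Between 40 and 50 fL COX1, COX3, COB and OLI1 rose, with a median of 0.53 over the 7; the COB call ended without 40 fL replicate 1 or 50 fL replicate 2 (0.0778 and 0.0604) and the OLI1 call without 50 fL replicate 1 (0.0519).

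Among isoforms and regulators of the complexes some passed at 50 fL and others at 75 fL, differences that were not themselves tested. COX5A and COX5B encode alternative forms of complex IV subunit 5, the aerobic and the low-oxygen form. COX5A was at 101 ± 3.21 CPM at 40 fL, 112 ± 8.94 at 50 fL and 151 ± 28.2 at 75 fL, and rose to 75 fL (0.57 ± 0.15, adjusted p = 0.0036) but did not pass at 50 fL. COX5B went from 189 ± 7.11 to 316 ± 52.9 CPM at 50 fL (0.74 ± 0.17, adjusted p = 0.00151) and stood at 207 ± 37.4 at 75 fL. INH1, the inhibitor of ATP hydrolysis by ATP synthase, rose by 1.21 ± 0.29 to 50 fL and 1.05 ± 0.28 to 75 fL. STF1 and STF2, known as stabilising factors of that inhibition, rose by 1.97 ± 0.48 and 1.62 ± 0.48 to 50 fL, and their changes to 75 fL, 0.94 ± 0.47 and -0.53 ± 0.47, did not pass. In this list of 8 further subunits and regulators 2 rose to 75 fL (median 0.24) and 4 to 50 fL (median 0.73). Of all tested genes 31.0% rose to 75 fL and 32.8% to 50 fL. CYC1, the main form of cytochrome c, rose by 0.90 ± 0.26 to 50 fL and 1.49 ± 0.26 to 75 fL, from 16.5 ± 0.822 to 46.2 ± 13.1 CPM, its 50 fL call ending without 50 fL replicate 3 (adjusted p = 0.0522). Among other dehydrogenases of the inner membrane, NDE2 and CYB2, for cytosolic NADH and L-lactate, rose by 1.85 ± 0.44 and 2.00 ± 0.45 to 50 fL. DLD1, for D-lactate, rose by 0.79 ± 0.17 to 50 fL and fell by 0.62 ± 0.16 to 75 fL. NDE1, the paralog of NDE2, fell by 1.24 ± 0.36 to 50 fL, opposite to NDI1, and stood at 396 ± 71.7 CPM at 75 fL beside 538 ± 42.5 at 40 fL. Over these 7 genes 4 rose and NDE1 fell by 50 fL (median 0.90), and CYC1 rose and DLD1 fell by 75 fL (median -0.44). By 50 and 75 fL, 24.2% and 30.2% of all tested genes fell.

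All 7 genes of a list of complex II paralogs and assembly factors rose between 40 and 50 fL (median 1.68), each call holding without any single library of those sizes, and 1, SHH3, rose between 40 and 75 fL (median 0.21). In these comparisons 32.8% and 31.0% of all tested genes rose. YJL045W, SHH3 and SHH4, the paralogs of SDH1, SDH3 and SDH4, rose by 1.68 ± 0.25, 2.06 ± 0.29 and 1.85 ± 0.33 to 50 fL. YJL045W had 13.4 ± 5.95 CPM at 40 fL, 43.3 ± 10.4 at 50 fL, 19.2 ± 0.466 at 60 fL and 9.53 ± 1.23 at 75 fL (SD, n = 3), and it fell by 1.17 ± 0.25 between 50 and 60 fL (adjusted p = 0.0217) and by 1.01 ± 0.25 between 60 and 75 fL (adjusted p = 0.0275). SDH1 did not pass in those comparisons, with 168.9 ± 32.3 CPM at 50 fL and 182.6 ± 54.9 at 75 fL. The difference between the paralogs was not tested. The SHH3 call at 75 fL (0.74 ± 0.29, adjusted p = 0.0347) ended without replicate 2 or 3 of 40 fL or replicate 1 or 3 of 75 fL (0.138, 0.0852, 0.0778 and 0.0901).

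Of the lists of assembly factors and of genes that drive expression of the mitochondrial subunits, 4 of 12, 3 of 27 and 5 of 14 genes fell to 75 fL and 1, 6 and 1 rose, where 30.2% of all tested genes fell and 31.0% rose. The shares of all tested genes to 50 fL were 24.2% and 32.8%. For complex III 1 of 12 rose to 75 fL, CBP2, a splicing factor of the COB transcript (0.47 ± 0.09, adjusted p = 0.000169), and 4 fell (median -0.14). These were CYC3, the heme lyase of cytochrome c (-1.56 ± 0.31), CBS2 (-0.62 ± 0.12) and CBS1 (-0.52 ± 0.18), translation activators of COB, and CBP1 (-0.24 ± 0.10). The CBS1 call ended without 75 fL replicate 3 (adjusted p = 0.0973), and that of CBP1 without any of the 6 libraries compared (0.0557 to 0.122). To 50 fL none of the 12 rose and those 4 fell (median 0.10), CBP1 by 0.42 ± 0.10, CBS1 by 0.58 ± 0.18, CBS2 by 0.45 ± 0.12 and CYC3 by 0.74 ± 0.30. The CBS1 call ended without 50 fL replicate 3 (0.0632) and that of CYC3 without any 40 fL replicate or 50 fL replicate 1 or 3 (0.0622 to 0.197) and some libraries of other sizes (0.0501 to 0.0514). For complex IV 6 of 27 rose and 3 fell (median 0.11), with COA2 (1.06 ± 0.16) and the copper chaperone SCO1 (0.87 ± 0.16) among the highest, COA1 (0.69 ± 0.17) and the copper chaperone COX17 (0.68 ± 0.21) also called, and the assembly factor PET100 (-0.75 ± 0.15), the COX1 translation activator PET309 (-0.57 ± 0.14) and COX18 (-0.44 ± 0.12) the ones that fell. Without 75 fL replicate 2 3 of the 27 rose, as the calls of COX14, COX17 and CMC2 ended (0.177, 0.0919 and 0.289). Those of COX14 and CMC2 also ended without replicate 2 or 3 of 40 fL or replicate 3 of 75 fL, and that of COX14 without 40 fL replicate 1 (0.0543 to 0.124). To 50 fL 12 of 27 rose and 2 fell (median 0.30), SCO1 by 1.14 ± 0.16. The calls of COX23 and SHY1 ended without any single 40 fL replicate (0.06 to 0.119). They also ended without 50 fL replicate 1, and without replicate 2 for COX23 and 3 for SHY1 (0.0529 to 0.215). That of CMC2 ended without 40 fL replicate 3 or 50 fL replicate 1 or 3 (0.0613 to 0.0786), and that of COX16 without 50 fL replicate 3 (0.0584). The fall of COX10 lost its call without 40 fL replicate 2 or 50 fL replicate 1 or 3 (0.0682 to 0.184). For ATP synthase 1 of 14 rose, NCA2 (0.70 ± 0.23; adjusted p = 0.0569 without 40 fL replicate 2), and 5 fell (median -0.15). NCA3, named for a part in expression of mitochondrial ATP6 and ATP8, went from 515 ± 49.5 CPM at 40 fL to 274 ± 67.3 at 60 fL and 64.1 ± 4.70 at 75 fL (-3.01 ± 0.26 from 40 to 75 fL). AEP3, ATP10 and ATP22 changed by -0.58 ± 0.11, -0.57 ± 0.16 and -0.31 ± 0.09. The fifth was INA17 (-0.29 ± 0.12), whose call ended without 40 fL replicate 1 or 2 or any 75 fL replicate (0.0598 to 0.142). To 50 fL 3 of the 14 rose and none fell (median 0.00). These were NCA2 (0.91 ± 0.23), FMC1 (0.38 ± 0.15) and ATP11 (0.35 ± 0.12). The ATP11 call ended without 40 fL replicate 3 or 50 fL replicate 1 (0.0878 and 0.114), and that of FMC1 also without replicate 1 or 2 of 40 fL or replicate 2 of 50 fL (0.0653 to 0.129).

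Of the regulators HAP4, the activator subunit of the Hap complex, rose by 0.44 ± 0.13 between 40 and 75 fL, from 124 ± 7.59 to 169 ± 20.0 CPM, with a call that ended without 75 fL replicate 2 (adjusted p = 0.0536). It did not pass between 40 and 50 fL (-0.14 ± 0.13, adjusted p = 0.39). Over the 8 sizes HAP4 passed (adjusted p = 1.43e-05), with a log2 range of 1.06 and single libraries from 95.6 to 269 CPM. What part HAP4 has in the changes of the subunit genes was not tested. HAP2, a DNA-binding subunit, fell by 0.68 ± 0.16 and HAP1, the heme activator, by 0.42 ± 0.11 to 75 fL, HAP3 and HAP5 did not pass, and the median of the 5 was 0.04. Beside them 31.0% of all tested genes rose and 30.2% fell to 75 fL, and 32.8% and 24.2% to 50 fL. To 50 fL HAP3 rose (0.27 ± 0.10), a call that ended without any of 40 fL replicates 1, 2 and 3 or 50 fL replicates 2 and 3 (0.0547 to 0.115), and the median was 0.04.

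Enzymes of the TCA cycle other than succinate dehydrogenase lay on the same side: 10 of 11 rose to 75 fL (median 1.12) and 9 of 11 to 50 fL (median 1.13), and none fell. The shares of all tested genes that rose were 31.0% and 32.8%. MDH1 (malate dehydrogenase) rose by 1.83 ± 0.46, ACO1 (aconitase) by 1.58 ± 0.35, LPD1 (the dihydrolipoamide dehydrogenase shared by several complexes) by 1.38 ± 0.23 and FUM1 (fumarase) by 1.30 ± 0.24 to 75 fL. LSC1 and LSC2, the subunits of succinyl-CoA ligase, rose by 0.95 ± 0.20 and 0.59 ± 0.16, and KGD1 and KGD2, of the alpha-ketoglutarate dehydrogenase complex, by 0.86 ± 0.25 and 0.71 ± 0.26. The KGD2 call ended without replicate 2 or 3 of 40 fL or replicate 2 of 75 fL (adjusted p = 0.0618, 0.0601 and 0.145). CIT1, citrate synthase, did not pass at 75 fL (0.50 ± 0.41, adjusted p = 0.296). Its 50 fL call (1.04 ± 0.41) ended without replicate 2 or 3 of 40 fL or replicate 1 or 3 of 50 fL (0.0865 to 0.135). Of the carriers that serve ATP synthase, PET9, the main ADP/ATP carrier, rose by 0.61 ± 0.16 and its low-oxygen form AAC3 by 1.21 ± 0.21 to 75 fL. MIR1, for the phosphate carrier, fell by 0.36 ± 0.15, a call that ended without any of 40 fL replicates 1 to 3 or 75 fL replicates 1 and 3 (adjusted p = 0.0637 to 0.165) and of some other libraries (0.0504 to 0.0517), and AAC1 and the porin gene POR1 did not pass (median of the 5, 0.34). With TPM in place of TMM-scaled counts the 75 fL calls of COX1, COB, ATP8, OLI1, COX5A, INH1, SHH3, CBP2, NCA2, HAP4, PET9, COA1, COX14, COX17, CMC2, KGD1, KGD2 and LSC2 ended, which left 7 of the 10 TCA enzymes called. Those of CYC1, DLD1, CBS2, CYC3, SCO1, COA2, PET100, PET309, COX18, ATP10, ATP22, AEP3, NCA3, HAP1, HAP2, ACO1, LPD1, LSC1, FUM1, MDH1 and AAC3 held in each alternative and without any single library. Which 50 fL calls of the related lists held with TPM or library totals is not given here call by call.

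**Figure D5:**
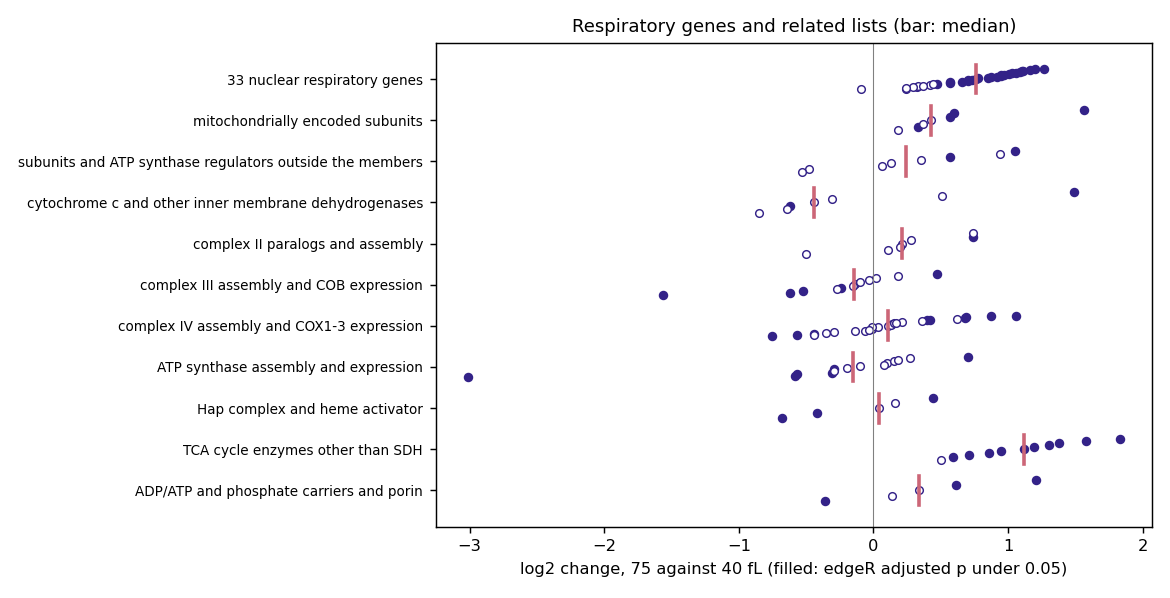
Log2 change from 40 to 75 fL of the 33 genes and of 10 related lists, with 1 point per gene (filled: edgeR adjusted p under 0.05) and a bar at the median. The subunit genes (median 0.76) and the TCA enzymes (1.12) lie to the right of 0, and the assembly lists of complexes III and IV and ATP synthase lie around it (-0.14, 0.11 and -0.15).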

How the data were processed

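RNA-seq was analysed for 24 libraries of rRNA-depleted total RNA, 3 pools at each of 8 cell sizes. The read counts per feature were deposited by the authors and made with featureCounts (Subread) on the R64 build, per the submitters' processing notes. TPM were deposited by the authors beside them. For the 33 genes the TPM imply the annotated coding lengths. Not given in the sources used here are the aligner, versions, strand and multi-mapping settings, and which library ran on which of 2 sequencing lanes. Counts were fitted with edgeR 4.0.16 (R 4.3.3), quasi-likelihood F test with robust estimation, TMM factors, filterByExpr by size and 1 coefficient per size over all 24 libraries. P-values were adjusted by Benjamini-Hochberg over 6402 genes, and 0.05 was the threshold. SE is the absolute log2 change over the square root of F. The series' design text calls the pools biological replicates, and their numbers follow the order of the sample records. The script was tested on simulated data. Alternatives were RLE factors, library totals, other filters, DESeq2 1.42.0, limma-voom and log2 TPM in limma 3.58.1, the 67.5 fL library in the 65 fL group, the compared sizes alone, and libraries left out.

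All 33 genes could be named. Values in every library are given for NDI1 and, in each complex, for the genes with the widest and narrowest range over the sizes and with the highest mean TPM. Genes whose sign differed from their complex, or that did not pass over the sizes, are also named. From related lists the rule allows up to 6 genes with the smallest adjusted p over the sizes, and all called ones where 5 or fewer were called. Of those 6, COX26, ATP19, GUT2, CBP3, MZM1, ATP23, COX2, ATP6, SDH5, SDH7 and SDH8, none called at 75 fL, are counted and not described singly. COX18, COX14, CMC2, COX10, COX16, COX23, SHY1, ATP22, MDH1, KGD2 and CIT1 are named outside these rules, after their values were seen. Genes and lists were chosen with earlier results of these data known. Steps between neighbouring sizes and the split at 450 coding bases were added after the values were seen.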

Additional observations from a re-analysis of the deposited data

How the results depend on the processing

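Over the 8 sizes 14 to 30 of the 33 genes were called under the alternatives run (21 as reported), and 16 to 30 when each library was left out in turn. As reported, 79.6% of all tested genes were called, a higher share than the 63.6% of the 33. The share of all genes over the 8 sizes is not given here for the alternatives. Between 40 and 75 fL 24 rose; library totals gave 15, and TPM plus 1 or plus 0.1 gave 9 that rose and 1 that fell. Leaving out 1 library gave 15 to 27 that rose and 0 that fell. Of all tested genes 31.0% rose to 75 fL as reported, 19.1% with totals, 14.6% with either TPM scale and 27.4% to 31.7% in the leave-outs. As reported 30.2% fell, and 25.5% to 31.7% in the leave-outs. With TPM plus 1 and plus 0.1, 3518 and 3491 of 6402 genes fell to 75 fL. Between 40 and 50 fL 24 rose; library totals gave 14, TPM plus 1 gave 9, and TPM plus 0.1 gave 8, each TPM scale with 1 that fell. Leaving out 1 library gave 17 to 25 and 0. Here 32.8% of all tested genes rose as reported, 19.0% with totals, 13.8% and 13.9% with TPM and 26.2% to 34.2% in the leave-outs. With TPM plus 1 and plus 0.1, 48.3% and 47.9% of all tested genes fell. From 50 to 60 and from 60 to 75 fL all alternatives and left-out libraries gave 0 in each direction. As reported, 3.98% and 2.00% of all tested genes rose and 6.11% and 2.01% fell. From 45 to 50 fL 16 rose, where 15.3% of all tested genes did. Without the 5 libraries that stood apart 25 rose (31.1% of all tested genes). With those sizes fitted alone 0 rose (0%), and with 1 library left out 0 to 32 rose (0% to 26.0%) and 0 fell. From 50 to 55 fL 2 fell, where 14.1% of all tested genes did. RLE factors and no filter gave 1 each (12.5% and 11.2% of all tested genes), and the 5 libraries left out gave 31 (29.1%). Those sizes alone gave 0 (3.17%), and 1 library left out gave 0 to 12 that fell (5.02% to 19.3%) and 0 that rose.

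Signs turned for genes that were not called as reported and for some that were. At 75 fL the called ones were COX1 (0.33 as reported), COX14 (0.40) and CMC2 (0.42). At 50 fL they were ATP11 (0.35), FMC1 (0.38) and HAP3 (0.27). From 40 to 75 fL QCR8 was -0.03 and COX13 -0.04 with library totals. With TPM plus 1 and plus 0.1, QCR8 was -0.22 and -0.22, QCR10 -0.14 and -0.15, COX7 -0.12 on both, COX9 -0.16, COX13 -0.21, ATP17 -0.03, ATP20 -0.10, SDH4 -0.02, COX1 -0.11, COX14 -0.05 and CMC2 -0.04 on both. QCR9 was 0.02 without 75 fL replicate 1 and 0.06 without replicate 3, and -0.38 without replicate 2. From 40 to 50 fL COX9 was -0.11 and ATP20 -0.13 with library totals. With TPM, COX7 was -0.11, COX8 -0.01, COX9 -0.24, ATP14 -0.05, ATP11 -0.04, FMC1 -0.01 and HAP3 -0.11 at both pseudocounts, and ATP20 -0.27 and -0.28. The cause was not tested, except that these scalings lower the median of all genes. No paired analysis was possible because the labels give no replicate numbers that link libraries of different sizes. With 3 libraries per size a single pool can decide a call, and a p that misses the threshold does not show that levels were equal.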
